A study of Mus musculus with 15 samples.

Results

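The genes described here encode the enzymes that carry glucose carbon through glycolysis into the citric acid cycle, with the glucose carrier that feeds them and the enzymes that lead back towards glucose. They were chosen by name, from a list of 36 genes, and a gene was followed through the array probe set that carries its symbol alone and has the highest mean over all arrays. Of the 36 genes, 34 had such a probe set, among 18194 genes with such a probe set on the whole array, and all 34 passed the filter on low signal. Gpi1, which encodes glucose-phosphate isomerase, and Eno1, which encodes an enolase, were not analysed here. The members were the glucose carrier Slc2a1, 13 genes of glycolysis, 3 subunits of pyruvate dehydrogenase, 14 genes of the citric acid cycle, and 3 genes of anaplerosis and gluconeogenesis.

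Messenger RNA levels came from scraped tissue of the opened colon of male C57BL/6 mice, an inbred laboratory strain, aged 11 weeks. Both groups ate a high-fat diet low in calcium, with 40% of its energy as fat, for 14 days. In the heme group (9 mice) the diet held heme, the iron porphyrin of red meat, at 0.5 umol per g, and in the control group (6 mice) it did not. Each mouse had its own array, so the replicates are animals. Control replicate 5 was not analysed here.

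Glycolysis breaks glucose down to pyruvate in the cytosol, and lactate dehydrogenase can turn that pyruvate into lactate. Pyruvate dehydrogenase, a large mitochondrial complex that is switched off when its kinases phosphorylate it, commits pyruvate to acetyl-CoA and so to the citric acid cycle. Colonocytes are known for burning short-chain fatty acids in that cycle, while dividing cells are known for a high use of glucose. Many glycolytic genes are textbook targets of the hypoxia-inducible factor, a transcription factor that is kept low while oxygen is plentiful.

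Over all genes, 9257 passed the filter, a signal over 20 (4.32 on the log2 scale) on at least 6 arrays, and between 9066 and 9319 genes lay over that floor on each array. A gene is called changed where the p-value of limma, adjusted by Benjamini-Hochberg over these 9257 genes, is under 0.05. Epithelial markers were high on every array, with a summed signal over 11 genes of 104146 to 113676 in heme mice and 103195 to 107469 in controls. All 11 measured mitosis genes rose, and their mean log2 level was 9.02 to 9.48 in heme mice and 7.46 to 8.67 in controls, without overlap. All 5 tested smooth muscle markers fell, with a summed signal over 10 markers of 1292 to 1942 in heme mice and 2191 to 7474 in controls. Of the 11 epithelial markers 3 rose and 1 fell. Chosen after their values were seen, Epcam fell by 0.20 with all heme mice below all controls, Krt20 rose by 0.39 on the log2 scale with all heme mice above them, and the leukocyte gene Ptprc fell by 1.04 (adjusted p 0.00369). Of 7 measured adipocyte markers Cidec and Lpl rose, and Fabp4 (-0.17) and Adipoq (-0.36) overlapped between the groups and were not called. Fabp4 was over the floor in all 15 mice, Adipoq in 4 of 9 heme mice and 3 of 6 controls, and Retn, Lep and Plin4 in none. The 3 measured red blood cell markers were at or under the floor in every mouse. Control mouse 2, control mouse 4 and heme mouse 6 stood apart from the rest of their groups. Control mouse 2 had the fibroblast gene Dcn at 10.41, control mouse 4 had the distal colon gene Hoxb13 at 3.77, under the floor, and heme mouse 6 had the interferon-induced gene Gbp2 at 11.28 (log2 levels). The mean log2 level of the tested distal colon Hox genes was 7.78 to 8.63 in heme mice and 3.19 to 8.94 in controls. In bulk tissue, fewer cells of a type and less RNA per cell cannot be told apart.

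With heme, the glucose carrier gene Slc2a1, 8 of 13 glycolysis genes and 7 of 14 genes of the citric acid cycle were higher. The gluconeogenic gene Pck1 was lower, as was Slc5a1, a glucose carrier gene that is not a member. Of the 34 members, 18 rose, 3 fell and 13 were not called. Over all 9257 genes, 53.6% were called in either direction, 27.2% as higher and 26.4% as lower with heme, so that calls alone are common in these data. The members' median log2 fold change was 0.23, against -0.01 over all genes tested, and 28 of the 34 fold changes were above 0. In 13 members every heme mouse lay above every control, which held for 11.2% of all genes, and in 1 member every heme mouse lay below every control, which held for 8.93% of all genes. Most called changes were small, with 15 under 0.5 and 6 at or above 0.5 on the log2 scale.

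**Figure D1:**
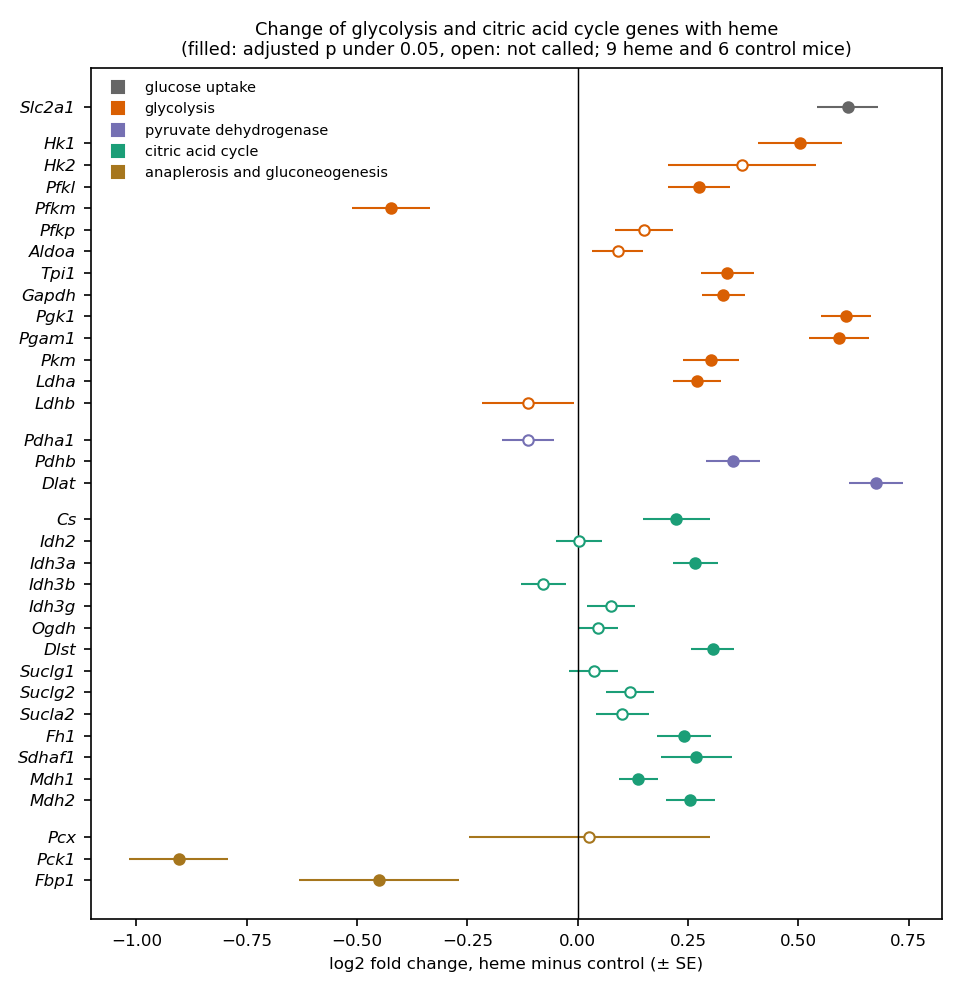
Log2 fold change of each of the 34 members, heme minus control, with its standard error, coloured by role and filled where the limma adjusted p was under 0.05 (9 heme and 6 control mice). Glucose uptake and glycolysis reach 0.61, the citric acid cycle ends at 0.31, and Pck1 lies at -0.90.

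Set side by side, 8 of 13 glycolysis genes rose and 1 fell, with a median log2 fold change of 0.30. Of 14 citric acid cycle genes 7 rose and 0 fell by limma, also 0 fell at an unadjusted p under 0.05, and their median was 0.13. Every heme mouse lay above every control for all 8 glycolysis genes that rose, but for 2 of the 7 cycle genes that rose, Idh3a and Dlst. The difference between the pathways was not tested. With the 3 mice that stand apart left out, 18 members rose and 3 fell, but Sdhaf1 lost its call (0.21, adjusted p 0.0610) and Hk2 gained it (0.38, adjusted p 0.0122, limma).

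The mitosis level given above separates the groups completely, so that heme and this level cannot be told apart in these mice. With it as a covariate 2 of the 21 called members, Hk1 (0.99) and Dlat (0.78), stayed called, and over all genes 189 were called as higher and 174 as lower. Several members lost the call at a fold change close to or above their own without it, among them Slc2a1 (0.59, adjusted p 0.0723), Pgk1 (0.51, adjusted p 0.0541), Pgam1 (0.58, adjusted p 0.0727) and Pkm (0.40, adjusted p 0.166). Others moved towards 0, such as Pdhb (0.14) and Mdh2 (0.037). The mean log2 level of the tested smooth muscle markers, 5.88 to 7.27 in heme mice and 6.99 to 9.95 in controls, barely overlapped. Heme and this level can thus hardly be told apart, and why a call was lost with it was not tested. With it as a covariate 15 members rose and 3 fell, not all the same ones as without it. Pfkl, Pfkm, Fh1, Mdh1 and Mdh2 lost the call. Hk2 (0.86, adjusted p 0.00810, limma) and, as lower, Idh3b (-0.21, adjusted p 0.0393, limma) gained it.

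**Figure D2:**
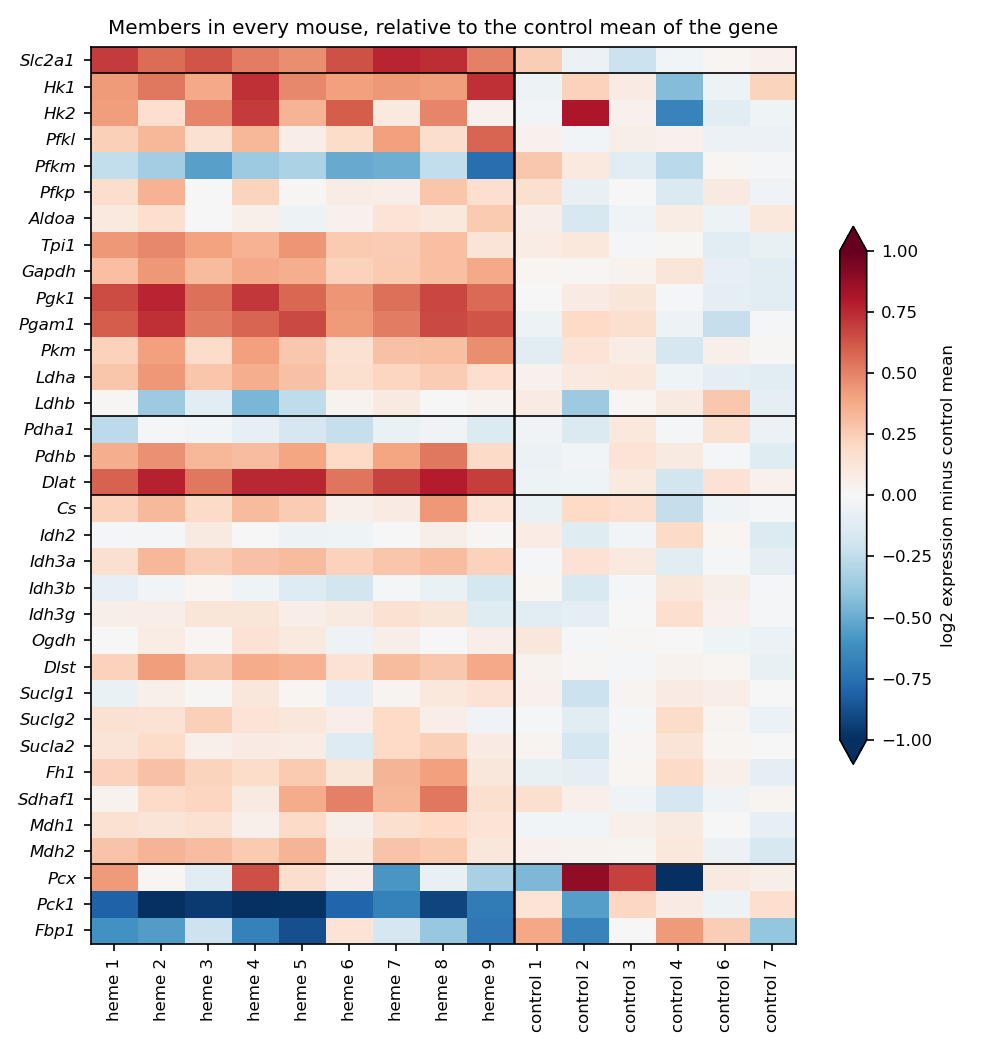
Log2 expression of each member in each mouse minus the mean of the 6 control mice, with heme mice on the left and controls on the right, and colours capped 1 unit above and below it. Slc2a1, Pgk1, Pgam1 and Dlat are red in all 9 heme mice and Pck1 is blue in all of them, whereas Hk2 and Pcx are strongly coloured in control mice 2 and 4.

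Slc2a1 encodes the basal glucose carrier of the plasma membrane. Its log2 level was 12.51 at the lowest, 12.68 at the median and 12.81 at the highest in heme mice, against 11.84, 12.05 and 12.29 in controls. Every heme mouse was above every control. The gene rose 1.53-fold, by 0.61 ± 0.07 on the log2 scale (SE, limma adjusted p 4.44e-06), and its other 2 tested probe sets gave 0.72 and 0.85.

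Hexokinase traps glucose in the cell as glucose phosphate, and 2 of its genes were members. Hk1, the broadly expressed form, had log2 levels from 10.70 through a median of 10.75 to 11.05 in heme mice, and from 9.88 through 10.34 to 10.55 in controls. The groups did not overlap, and Hk1 rose by 0.50 ± 0.10 (adjusted p 0.000422), or 1.42-fold. Hk2, the form known for its response to hypoxia and growth signals, ranged from 9.999 to 10.65 with a median of 10.37 in heme mice, and from 9.28 to 10.76 with a median of 9.92 in controls. The control range covers the whole heme range, with control mouse 2 the highest of all mice and control mouse 4 the lowest, and the change of 0.37 ± 0.17 was not called (adjusted p 0.0717). Without control mouse 2 it was 0.53 and was called (adjusted p 0.00314, limma), and without control mouse 4 it was 0.24 and was not (adjusted p 0.189). Of 28 alternatives 5 gave Hk2 a call. Among them were the smooth muscle covariate (0.86, adjusted p 0.00810), centring the arrays (0.42, adjusted p 0.0394) and weighting them (0.43, adjusted p 0.0131).

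Phosphofructokinase catalyses the committed step of glycolysis, and of its 3 subunit genes 1 rose and 1 fell. The liver-type gene Pfkl was at 10.86 to 11.38 with a median of 11.03 in heme mice, and at 10.74 to 10.86 with a median of 10.80 in controls. Every heme mouse lay above every control, by a narrow margin at the edge, and Pfkl rose by 0.27 ± 0.07 (adjusted p 0.00387). With the smooth muscle covariate, which itself moves with heme, it stood at 0.26, close to its value without it, and was not called (adjusted p 0.0920). The muscle-type gene Pfkm was at 4.06 to 4.56 with a median of 4.44 in heme mice, and at 4.54 to 5.08 with a median of 4.81 in controls. It fell by 0.42 ± 0.09 on the log2 scale (adjusted p 0.000954), close to the signal floor, which 5 of 9 heme mice and 6 of 6 controls exceeded, so the size of this change is uncertain. Smooth muscle markers fell with it, and with the same covariate Pfkm stood at -0.29 and was not called (adjusted p 0.113). The platelet-type gene Pfkp, at 10.68 to 11.03 with a median of 10.85 in heme mice and at 10.54 to 10.84 with a median of 10.66 in controls, overlapped between the groups and was not called (0.15 ± 0.07, adjusted p 0.0652). Its probe sets disagreed in the call, since the dimmer of them gave 0.45 with an adjusted p of 0.00251. Leaving out control mouse 1, heme mouse 3 or heme mouse 5 also gave a call for Pfkp, with values of 0.18, 0.17 and 0.17.

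Aldolase and triose phosphate isomerase split and interconvert the sugar phosphates. Aldoa was not called (0.09 ± 0.06, 95% interval -0.03 to 0.21), and its other 4 tested probe sets gave 0.03 to 0.13. Tpi1 rose by 0.34 ± 0.06 (adjusted p 0.000232), with all heme mice above all controls. From hexokinase to triose phosphate isomerase, 3 of 7 tested genes rose and 1 fell, against 27.2% and 26.4% of all genes.

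From Gapdh to lactate dehydrogenase, the later stretch of the pathway, 5 of 6 tested genes rose, and in all 5 the groups did not overlap. Over all genes 27.2% rose, and in 11.2% every heme mouse lay above every control. The difference between the earlier and the later stretch was not tested. Gapdh, which oxidises the triose phosphate, rose by 0.33 ± 0.05 (adjusted p 5.18e-05), so that this common reference gene was not level between the groups. Its 3 probe sets, which lie along the transcript, gave 0.28 to 0.33. Its 3′ minus 5′ log2 difference, a sign of RNA integrity, was -0.15 to -0.05 in heme mice and -0.14 to 0.03 in controls, with an exact two-sided permutation p of 0.0645 and overlapping groups.

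Pgk1 encodes phosphoglycerate kinase, which makes ATP. Its log2 level was 12.49 at the lowest, 12.62 at the median and 12.81 at the highest in heme mice, against 11.95, 12.04 and 12.17 in controls. The gap between the lowest heme mouse and the highest control was wider than the control range. Pgk1 rose by 0.61 ± 0.06 (adjusted p 6.90e-07), or 1.52-fold, with 0.54 and 0.72 from its other probe sets. Pgam1, phosphoglycerate mutase, was at 12.17 to 12.48 with a median of 12.35 in heme mice, and at 11.51 to 11.94 with a median of 11.71 in controls. The groups were again apart, and Pgam1 rose by 0.59 ± 0.07 (adjusted p 5.06e-06), or 1.51-fold. Pkm, the pyruvate kinase of most dividing and epithelial cells, rose by less, 0.30 ± 0.06 (adjusted p 0.000867), with all 9 heme mice above the controls.

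**Figure D3:**
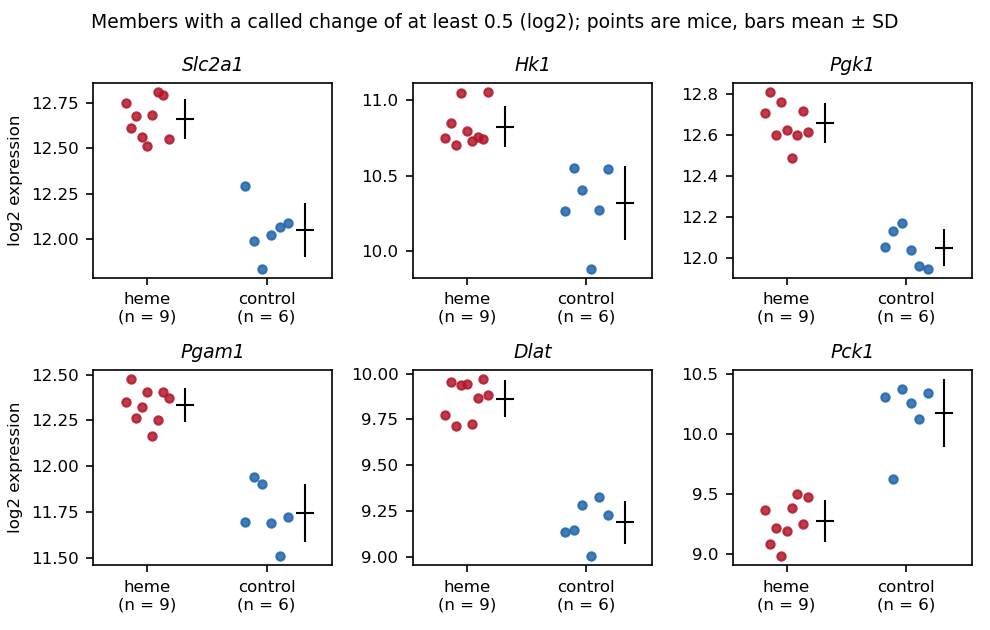
Log2 expression in each mouse of the 6 members with a called change of at least 0.5 on the log2 scale, heme on the left and control on the right of each panel, with bars for mean ± SD (9 heme and 6 control mice). The groups do not overlap in any of the 6, and Pck1 is the member among them that was lower with heme.

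Lactate dehydrogenase is built from A and B subunits, of which the A form is favoured in glycolytic tissue. Ldha was at 13.13 to 13.41 with a median of 13.25 in heme mice and at 12.86 to 13.08 with a median of 12.97 in controls. All heme mice lay above all controls, and Ldha rose by 0.27 ± 0.06 (adjusted p 0.000759). Ldhb was at 4.95 to 5.51 with a median of 5.41 in heme mice and at 5.05 to 5.69 with a median of 5.47 in controls, so the ranges overlapped, and it was not called (-0.11 ± 0.10, 95% interval -0.34 to 0.11).

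Whether isozymes of the same step changed unequally was tested on the log2 difference within each array, with exact two-sided permutation over 5005 splits of the mice and adjustment over the 5 pairs. For Pfkm minus Pfkl, heme mice ran from -1.33 to -0.38 relative to the control mean, and controls from -0.31 to 0.22. All 9 heme mice lay below all controls, and the change was -0.70 with an exact permutation p of 0.0002, the smallest that 5005 splits allow, and an adjusted p of 0.000999. This difference rests on Pfkm values near the signal floor, which 4 of 9 heme mice did not exceed, so its size is uncertain, and it was not tested with the smooth muscle covariate, under which the Pfkm call was lost. For Ldha minus Ldhb, heme mice ran from 0.12 to 0.82 and controls from -0.36 to 0.46, and the change of 0.38 did not pass (exact permutation p 0.0222, adjusted p 0.0554). With control mice 2 and 4 and heme mouse 6 left out it did pass (0.50, adjusted p 0.0202), as it did without control mouse 2 alone (0.48, adjusted p 0.00999), heme mouse 6 (0.42), heme mouse 7 (0.42) or heme mouse 9 (0.41). The pairs Hk2 minus Hk1 (-0.13), Pfkp minus Pfkl (-0.12) and Suclg2 minus Sucla2 (0.02) did not pass, with adjusted exact permutation p-values of 0.523, 0.226 and 0.737.

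**Figure D4:**
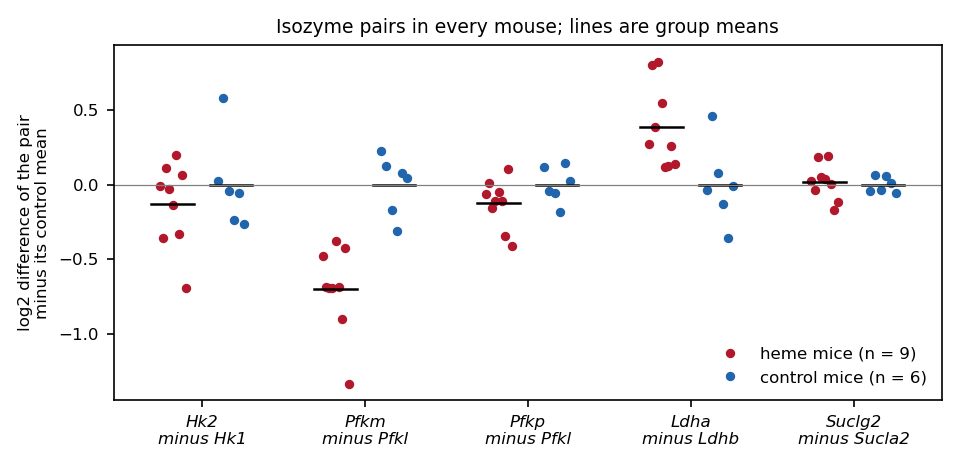
Log2 difference between the members of each of 5 isozyme or subunit pairs in every mouse, minus the control mean of that difference, with heme mice left of controls and lines at the group means. Pfkm minus Pfkl separates the groups, the heme mice at -1.33 to -0.38 and the controls at -0.31 to 0.22, with Pfkm at or under the signal floor in 4 of 9 heme mice, and the other 4 pairs overlap.

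Hypoxia-inducible factor binds a short core, ACGTG or GCGTG, and promoters of these genes were read for it. Whether the factor acts on these genes in these mice was not tested. Promoter windows of 300 bases around the start of transcription came from RefSeq on build GRCm38.p6, and 35 of the 36 listed genes matched. Of these 35, 22 held the core on either strand (62.9%), against 43.8% of 27025 mouse genes, so the letters alone are common. Of 15 glycolysis promoters 10 held it, and of 13 cycle promoters 8 did. The glycolysis promoters include those of Eno1 and Gpi1, whose expression was not analysed here. The 27025 genes were not limited to those over the signal floor. The sequences below are those of Slc2a1 (chr4:119108495-119108794, plus strand), Pgk1 (chrX:106186850-106187149, plus strand) and Pgam1 (chr19:41911621-41911920, plus strand), which hold the core, and of Pck1 (chr2:173152823-173153122, plus strand), the member with the largest fall, which does not. They run 5′ to 3′, and capitals mark the core or its reverse complement. These sequences were picked from the 6 members with a called change of at least 0.5. Those of Hk1 and Dlat, which also lack the core, are not shown.
Slc2a1: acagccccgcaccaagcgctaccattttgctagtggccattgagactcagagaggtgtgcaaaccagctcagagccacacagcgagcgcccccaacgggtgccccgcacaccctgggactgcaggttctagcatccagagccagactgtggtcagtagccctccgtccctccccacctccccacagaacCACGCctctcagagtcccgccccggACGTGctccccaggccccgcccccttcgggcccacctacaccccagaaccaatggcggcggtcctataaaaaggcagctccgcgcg
Pgk1: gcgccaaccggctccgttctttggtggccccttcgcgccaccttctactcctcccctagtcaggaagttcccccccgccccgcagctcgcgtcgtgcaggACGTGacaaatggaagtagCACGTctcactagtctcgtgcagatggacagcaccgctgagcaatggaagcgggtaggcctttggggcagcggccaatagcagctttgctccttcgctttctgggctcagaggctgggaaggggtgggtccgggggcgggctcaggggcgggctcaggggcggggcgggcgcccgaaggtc
Pgam1: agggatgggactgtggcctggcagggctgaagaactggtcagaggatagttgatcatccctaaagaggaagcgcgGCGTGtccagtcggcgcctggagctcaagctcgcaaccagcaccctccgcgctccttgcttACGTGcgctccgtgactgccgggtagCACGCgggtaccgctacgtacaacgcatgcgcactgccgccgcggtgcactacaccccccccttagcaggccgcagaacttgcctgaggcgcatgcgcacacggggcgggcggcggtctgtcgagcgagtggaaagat
Pck1: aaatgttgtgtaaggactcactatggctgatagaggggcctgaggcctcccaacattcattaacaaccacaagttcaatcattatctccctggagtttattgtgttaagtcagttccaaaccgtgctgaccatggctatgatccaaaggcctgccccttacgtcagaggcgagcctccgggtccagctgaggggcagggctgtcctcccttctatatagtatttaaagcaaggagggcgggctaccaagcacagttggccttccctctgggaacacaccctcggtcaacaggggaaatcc
The core occurred at 2 places in Slc2a1, 2 in Pgk1 and 3 in Pgam1, and at 0 in the windows of Hk1, Dlat and Pck1, where a called change was also at or above 0.5. Hk1 has 2 listed promoters, and only the first was read. The E-box CACGTG, which contains ACGTG, was in 3 of the 35 promoters and in 7.24% of all genes. The core of the factor NRF1, GCGCATGC, was in 1, Pgam1, and in 2.80% of all genes, and the motif AAGGTCA of estrogen-related receptors was in 2 and in 4.66% of all genes, both strands counted. These matches are descriptions of the letters in these windows.

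Pyruvate dehydrogenase joins glycolysis to the citric acid cycle, and 2 of its 3 member genes rose. Dlat, the acetyltransferase core, was at 9.72 to 9.97 with a median of 9.88 in heme mice, and at 9.00 to 9.33 with a median of 9.19 in controls. The lowest heme mouse lay well above the highest control. Dlat rose by 0.68 ± 0.06 (adjusted p 5.54e-07), or 1.60-fold, the largest rise among the 34 members by this probe set, while its other probe sets gave 0.77 and 0.29. Pdhb, the beta subunit of the decarboxylase, rose by 0.35 ± 0.06 (adjusted p 0.000201), again with no overlap. Pdha1, the alpha subunit that carries the regulatory phosphorylation sites, was not called (-0.11 ± 0.06, adjusted p 0.114, 95% interval -0.24 to 0.01).

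The other genes of the complex and its control were listed from textbook membership. Of 10 tested, 6 rose and 2 fell, against 27.2% and 26.4% of all genes. Pdhx, which anchors dihydrolipoamide dehydrogenase to the core, rose by 0.60 ± 0.11 (adjusted p 0.000242), and it stood, with the smooth muscle covariate, at 0.35 and was not called (adjusted p 0.0855). The kinase Pdk4, which inactivates the complex during fasting and fat use, was at 10.72 to 11.70 with a median of 11.37 in heme mice, and at 6.64 to 10.22 with a median of 8.22 in controls. It was above all controls in 9 of 9 heme mice, and its rise of 3.14 ± 0.39 (adjusted p 1.07e-05) was 8.84-fold. Controls spread over a wide range, with an SD of 1.23 against 0.37 in heme mice. The kinase Pdk3 was at 8.52 to 9.13 with a median of 8.95 in heme mice, and at 7.00 to 8.36 with a median of 7.61 in controls, and rose by 1.26 ± 0.17 (adjusted p 2.18e-05). Chosen after their values were seen, the kinase Pdk1 and dihydrolipoamide dehydrogenase, Dld, rose by 0.47 and 0.36, and the kinase Pdk2 fell by 0.30 on the log2 scale (adjusted p 0.0150). The kinases thus moved in opposite directions.

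**Figure D5:**
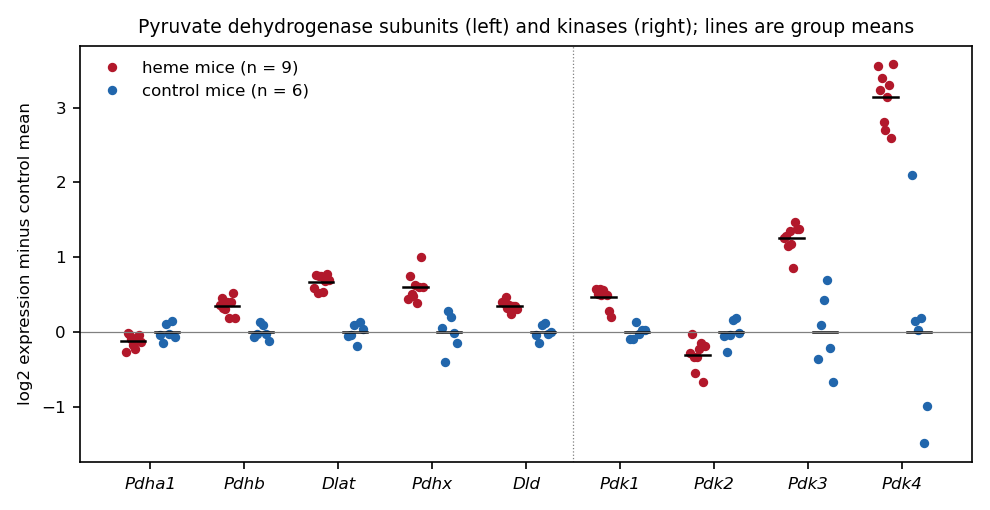
Log2 expression minus the control mean of 5 subunit genes (left) and 4 kinase genes (right) of pyruvate dehydrogenase in each mouse, heme left of control for each gene, with lines at the group means (9 heme and 6 control mice). Pdk4 lies 3.14 above the control mean and its controls spread most, Pdk2 lies below it, and Pdha1 is the subunit gene without a rise.

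In the citric acid cycle, the entry enzyme citrate synthase, Cs, rose by 0.22 ± 0.07 (adjusted p 0.0196), with 5 of 9 heme mice above all controls. Without control mouse 4 it was 0.18 and was not called (adjusted p 0.0531), and its other probe sets gave 0.15 and 0.39. The NAD-linked isocitrate dehydrogenase had 1 of its 3 subunit genes called. Idh3a, the catalytic subunit, was at 12.21 to 12.38 with a median of 12.33 in heme mice and at 11.93 to 12.20 with a median of 12.03 in controls, and rose by 0.27 ± 0.05 (adjusted p 0.000432). The groups only just failed to touch. The other subunits Idh3b (-0.08 ± 0.05, 95% interval -0.19 to 0.03) and Idh3g (0.08 ± 0.05, 95% interval -0.04 to 0.19) were not called, nor was Idh2, the mitochondrial NADP-linked enzyme (0.00 ± 0.05, 95% interval -0.11 to 0.12). Idh3b was called as lower with the smooth muscle covariate (-0.21, adjusted p 0.0393) and after quantile normalization (-0.15, adjusted p 0.0191).

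In the oxoglutarate dehydrogenase complex 1 of 2 member genes rose. Its core gene Dlst was at 10.61 to 10.88 with a median of 10.78 in heme mice and at 10.39 to 10.50 with a median of 10.48 in controls. All heme mice lay above all controls, and Dlst rose by 0.31 ± 0.05 (adjusted p 9.92e-05), the largest rise in the cycle. Of its 3 dimmer probe sets 1 rose (0.41) and the others were not called (0.02 and -0.22), and the mean of its probe sets gave 0.13 without a call (adjusted p 0.325). Ogdh, the decarboxylase of the complex, was not called (0.05 ± 0.04, 95% interval -0.05 to 0.14), while a dimmer probe set of it fell by 0.35 on the log2 scale (adjusted p 0.00827), so that its probe sets disagree.

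The genes of succinyl-CoA ligase were not called. Suclg1, the shared alpha subunit, was at 0.04 ± 0.06 (95% interval -0.08 to 0.15). Suclg2, the GTP-specific beta subunit, was at 12.003 to 12.27 with a median of 12.17 in heme mice and at 11.93 to 12.22 with a median of 12.02 in controls. Sucla2, the ATP-specific beta subunit, was at 11.28 to 11.65 with a median of 11.50 in heme mice and at 11.24 to 11.54 with a median of 11.43 in controls. Both overlapped between the groups, with changes of 0.12 ± 0.05 (adjusted p 0.0770) for Suclg2 and 0.10 ± 0.06 (adjusted p 0.171) for Sucla2. Leaving out control mouse 4 or heme mouse 9 gave a call for Suclg2, with values of 0.15 and 0.14.

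From succinate dehydrogenase to malate dehydrogenase the 4 members rose, while 27.2% of all genes did. Sdhaf1, an assembly factor of succinate dehydrogenase, rose by 0.27 ± 0.08 (adjusted p 0.0106), with 7 of 9 heme mice above all controls. The catalytic subunit genes of that enzyme, no members and chosen after their values were seen, were not called, with Sdha at -0.01 ± 0.05 (adjusted p 0.845) and Sdhb at 0.10 ± 0.06 (adjusted p 0.161), while the anchor subunit genes Sdhc and Sdhd rose by 0.27 and 0.28 (adjusted p 0.00358 and 0.000624). Fumarase, Fh1, rose by 0.24 ± 0.06 (adjusted p 0.00349). The malate dehydrogenases Mdh1, of the cytosol, and Mdh2, of mitochondria, rose by 0.14 ± 0.04 (adjusted p 0.0147) and 0.25 ± 0.06 (adjusted p 0.00126). With the smooth muscle covariate Fh1, Mdh1 and Mdh2 were not called, at 0.16, 0.13 and 0.23. The other tested probe sets of Mdh1 gave 0.19 and 0.10, the latter not called (limma adjusted p 0.120). Mdh1 also lost its call with the mean of probe sets (0.089) and with the replicate block (0.12).

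Among the genes that lead back towards glucose, Pck1, the cytosolic phosphoenolpyruvate carboxykinase that starts gluconeogenesis, was at 8.98 to 9.50 with a median of 9.25 in heme mice, and at 9.62 to 10.38 with a median of 10.28 in controls. All 9 heme mice lay below all controls, although control mouse 2 was close to them. Pck1 fell by 0.90 ± 0.11 on the log2 scale (adjusted p 1.01e-05), the largest change among the members, to 0.535 of the control level, and its other probe set also fell by 0.90. Fbp1, a fructose bisphosphatase, was at 3.88 to 4.90 with a median of 4.20 in heme mice and at 4.09 to 5.18 with a median of 4.88 in controls. It was over the signal floor in 4 of 9 heme mice and 5 of 6 controls, and its fall of 0.45 ± 0.18 barely passed (adjusted p 0.0471). The call was lost on leaving out any of control mice 1, 3, 4 or 6 or heme mice 1, 2, 4, 5, 8 or 9, with values between -0.46 and -0.36. The related gene Fbp2, no member and chosen after its values were seen, was at 11.40 to 11.80 in heme mice and 10.98 to 11.58 in controls and rose by 0.36 ± 0.08 (adjusted p 0.00200). In its list of other gluconeogenic and cycle exit genes 4 of 7 rose and 0 fell by limma, also 0 at an unadjusted p under 0.05. Over all genes 27.2% rose and 26.4% fell. Pcx, the pyruvate carboxylase that refills the cycle, was at 7.43 to 8.65 with a median of 8.03 in heme mice and at 6.74 to 8.90 with a median of 8.09 in controls, and was not called (0.03 ± 0.27, adjusted p 0.942, 95% interval -0.55 to 0.61). Its lowest control was mouse 4 and its highest mouse 2, the same mice as for Hk2.

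Beyond the members, 66 genes of the same pathways were tested of 90 listed, and 28 rose and 9 fell, with a median log2 fold change of 0.15. These were 42.4% and 13.6% of the tested genes, against 27.2% and 26.4% of all genes. In sugar entry and glycogen, Pgm1, a phosphoglucomutase, was higher in every heme mouse than in every control and rose by 1.17 ± 0.14 (adjusted p 6.53e-06). The sodium-coupled glucose carrier Slc5a1, of the apical membrane, was at 10.36 to 10.74 with a median of 10.56 in heme mice and at 10.95 to 11.36 with a median of 11.27 in controls. It fell by 0.68 ± 0.07 (adjusted p 1.63e-06), the opposite direction to Slc2a1. Slc2a8, another hexose carrier gene, chosen after its values were seen, fell by 0.24 on the log2 scale, near the signal floor. Among other glycolytic isozymes, Hkdc1, a hexokinase-like gene, fell by 0.81 ± 0.19 (adjusted p 0.00235), and Bpgm, which makes bisphosphoglycerate, rose by 0.55 ± 0.05 (adjusted p 6.64e-07).

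Of the mitochondrial carriers and shuttles, the dicarboxylate carrier Slc25a10 rose by 0.50 ± 0.09 (adjusted p 0.000257), and it stood, with the smooth muscle covariate, at 0.36 and was not called (adjusted p 0.0537). The cytosolic aspartate aminotransferase Got1 of the malate-aspartate shuttle rose by 0.61 ± 0.07 (adjusted p 3.32e-06). In this shuttle and the glycerol phosphate shuttle together 4 of 6 genes rose and 0 fell by limma, also 0 at an unadjusted p under 0.05. Of 9 other tested genes of the cycle and its assembly 5 rose and 0 fell, also 0 at an unadjusted p under 0.05, and the largest change was 0.45. Beside both counts, 27.2% of all genes rose and 26.4% fell.

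Transcription factors of these pathways were mostly not called, with 1 of 10 higher and 2 lower, against 27.2% and 26.4% of all genes. Among those not called, Esrra, Gabpa and Nrf1 each had a dimmer probe set that was called, at -0.76, 0.34 and 0.30. Their brightest probe sets were at 0.02, -0.06 and -0.08, so that the probe sets of these genes disagree. Hif1a encodes the oxygen-regulated subunit of hypoxia-inducible factor, and its messenger RNA, not its protein, was measured. Its log2 level was 10.86 to 11.48 with a median of 11.13 in heme mice. In controls it was 8.74 to 10.56 with a median of 10.07, the lowest being control mouse 4. All heme mice lay above all controls, and Hif1a rose by 1.26 ± 0.23 (adjusted p 0.000321), or 2.39-fold, and by 1.18 without the 3 mice that stand apart. Epas1, of the same list and chosen after its values were seen, was at -0.27, with a dimmer probe set at 0.41, and neither was called. Ppargc1a, the coactivator of mitochondrial gene programmes that also drives Pck1 in liver, was at 8.12 to 8.59 with a median of 8.27 in heme mice and at 9.58 to 10.25 with a median of 9.73 in controls. It fell by 1.51 ± 0.11 on the log2 scale (adjusted p 5.21e-08), with a wide gap between the groups. Mlxipl, a glucose-sensing factor, fell by 0.75 ± 0.12 (adjusted p 0.000115).

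Of 10 tested targets of hypoxia-inducible factor outside glycolysis, 4 were higher and 1 lower, against 27.2% and 26.4% of all genes. Ndrg1 rose by 1.14 ± 0.09 (adjusted p 1.95e-07) with all heme mice above all controls. Egln3, a prolyl hydroxylase that marks the factor for breakdown, rose by 1.11 ± 0.28 (adjusted p 0.00336), and by 0.78 without the 3 mice that stand apart. Bnip3, of mitochondrial clearance, rose by 0.72 ± 0.17 (adjusted p 0.00222), and it stood, with the smooth muscle covariate, at 0.67 and was not called (adjusted p 0.0711). Chosen after their values were seen, Vegfa was at -0.27 ± 0.12 (adjusted p 0.0620) and Kdm3a fell by 0.26 (adjusted p 0.0204).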

How the data were processed

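RNA from colon scrapings of 15 mice (9 heme, 6 control) was hybridised to 1 Affymetrix mouse array per mouse. Per the submitters' processing notes, the authors used GCRMA 2.22.0, and what they deposited is a log2 level for each probe set. GCRMA corrects background by probe sequence, so values near the floor are compressed and uncertain. No detection calls were used. Precision is limited by how many arrays there are.

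Probe sets with 1 gene symbol (34958) stood for 18194 genes, each through its probe set with the highest mean, and 932 with several symbols and 9211 without a listed one were left out. The 9257 genes that exceeded a signal of 20 on 6 or more arrays were tested with limma 3.58.1 in R 4.3.3 (lmFit, eBayes), heme minus control, with Benjamini-Hochberg adjustment over all of them and a threshold of 0.05. Errors are standard errors unless given as SD. Isozyme pairs were tested by exact two-sided permutation over the mice. The procedure was tested on simulated data. Promoters came from RefSeq, the first listed per gene.

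The members, gene lists and tests were chosen with earlier results of these data known. All members were named. Values by mouse were given for members with a called change of at least 0.5 and for the isozyme pairs, and other pathway genes were named where called at that size, at most 4 per list. Further names and single-mouse values were chosen after their values were seen, as were the values by mouse of other genes.

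Alternatives were dropping the filter, raising the floor to 100, averaging the probe sets of each gene, centring or quantile-normalizing the arrays, a robust variance trend, weighting arrays, blocking on replicate number, covariates for array number, smooth muscle level or mitosis level, leaving out each mouse, and leaving out control mice 2 and 4 with heme mouse 6. A distal Hox covariate was added after the data were seen.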

Additional observations from a re-analysis of the deposited data

Results flagged for a closer look

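Over 49 genes, 98 groups of mice were tested for a mouse at either end that lay beyond Dixon's 95% critical value, and 4 such mice were found, where chance alone gives about 1 in 20 groups. Idh3g, a subunit of isocitrate dehydrogenase, was at 11.35 in heme mouse 9, below the 11.53 to 11.62 of the other heme mice. Suclg1, of succinyl-CoA ligase, was at 12.29 in control mouse 2, below the 12.50 to 12.58 of the other controls. Pck1, the gluconeogenic gene, had its lowest control value in mouse 2, 9.62, below the 10.13 to 10.38 of the remaining controls, and without this mouse its fold change was -1.01. Egln3, the prolyl hydroxylase, was at 8.16 in heme mouse 1, below the 8.70 to 9.25 of the other heme mice.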

How the results depend on the processing

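Of the 21 called members, 12 stayed called under every alternative except the mitosis covariate, and 2 with it. The replicate numbers do not pair the mice, since same-numbered mice correlated at -0.19 to 0.20, and 1 of 6 correlated best with its own number. With the replicate block 15 members rose and 2 fell, 4 cycle genes rose, 5 other pathway genes fell, and 2065 genes rose and 1899 fell. The mitosis covariate left 189 genes higher and 174 lower, 2 members higher and 0 lower, 1 glycolysis gene higher and 0 lower, 0 cycle genes higher, and 3 other pathway genes higher and 2 lower. Slc2a1 (0.59), Pgk1 (0.51), Pgam1 (0.58), Pkm (0.40) and Idh3a (0.28) lost the call at a fold change close to or above their own without it. With the smooth muscle covariate the counts were 1662 genes higher, 0 glycolysis genes lower, 4 cycle genes higher and 1 lower, Idh3b, and 17 other pathway genes higher. A floor of 100 left 1 member lower, Pck1, and 0 glycolysis genes lower, since Pfkm was no longer tested. The mean of probe sets and quantile normalization each put 1 cycle gene lower, Ogdh and Idh3b. Median centring moved the median of all genes to 0.04.

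Reversed values, on the log2 scale, were mostly those of members without a call. Under the mitosis covariate they were Fh1 -0.041, Mdh1 -0.017, Idh2 -0.22, Idh3g -0.046, Suclg1 -0.0042, Suclg2 -0.036 and Sucla2 -0.058, and under the smooth muscle covariate Idh2 -0.12, Idh3g -0.031 and Suclg1 -0.11. Quantile normalization gave Idh2 -0.016, Suclg1 -0.032 and Suclg2 minus Sucla2 -0.020. The mean of probe sets gave Idh3b 0.084 and Ogdh -0.15 (adjusted p 0.0453). Pcx was -0.075 without the 3 mice that stand apart and -0.24 with the distal Hox covariate. Leaving out single mice gave ranges of -0.024 to 0.042 for Idh2, -0.0064 to 0.052 for Suclg1, -0.23 to 0.20 for Pcx, -0.0037 to 0.042 for Suclg2 minus Sucla2 and 0.31 to 0.48 for Ldha minus Ldhb, which was 0.50 without the 3 mice. The cause of these changes was not tested. Signal near the floor limits Pfkm, Ldhb and Fbp1.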
